A study of Mus musculus with 9 samples.

Results

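The variable (V) segments of the mouse immunoglobulin loci were followed in 9 RNA-seq libraries of myeloid cells. The members were all rows of the deposited table whose symbol in the GENCODE M21 annotation begins with Ighv, Igkv or Iglv and whose biotype is a functional V gene. The rule gave 216 of the 54532 genes in the table, made up of 113 heavy chain segments (Ighv), 100 kappa segments (Igkv) and 3 lambda segments (Iglv). Another 130 V segments annotated as pseudogenes were kept apart. All libraries came from C57BL/6 mice aged 6 to 8 weeks, and the labels call the cells myeloid, from white cells. There were 3 groups of 3 libraries, each with the letters A, B and C. The groups fl and Gr_1 were labelled as wild type and the group KO as SOCS3 KO. The labels spell out neither fl nor Gr_1, and they give no promoter or Cre line for the deletion, no gate for the cells and no word on whether replicate libraries were separate mice. P-values therefore measure only the spread between these libraries, which may be technical. Sex-linked genes, given below, set KO A and KO B apart.

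An antibody chain is encoded by a V segment that a B cell precursor has joined to a J segment, with a D segment between them in the heavy chain, and the joined exon is spliced to a constant region. Each B cell clone keeps 1 productive heavy and usually 1 productive light chain rearrangement, so the set of V segments read in a sample is a record of the B lineage cells whose RNA it holds. Myeloid cells do not rearrange these loci as a rule. V segments next to unrearranged loci can also give low levels of germline transcripts before joining.

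The last 60 bases of the annotated transcript of 9 V segments are printed below 5′ to 3′ in the reading direction of the gene, because the results turn on these members. The capitals mark the codon of the conserved second cysteine, which closes the framework before the third complementarity determining region.
Ighv1-81: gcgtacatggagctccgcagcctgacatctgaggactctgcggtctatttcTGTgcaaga
Ighv1-69: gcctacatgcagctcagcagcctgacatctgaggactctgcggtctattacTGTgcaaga
Ighv7-1: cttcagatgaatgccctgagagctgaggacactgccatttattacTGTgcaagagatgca
Ighv11-2: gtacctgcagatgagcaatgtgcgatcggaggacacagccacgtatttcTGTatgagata
Igkv1-117: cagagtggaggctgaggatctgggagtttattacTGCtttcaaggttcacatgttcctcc
Igkv1-110: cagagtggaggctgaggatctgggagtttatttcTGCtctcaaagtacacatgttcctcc
Igkv15-103: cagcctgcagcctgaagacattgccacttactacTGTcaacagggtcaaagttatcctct
Igkv14-126: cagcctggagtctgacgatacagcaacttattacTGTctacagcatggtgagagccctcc
Igkv5-39: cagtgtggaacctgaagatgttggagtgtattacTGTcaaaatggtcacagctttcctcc
The codon was taken from the last match to TANTNNTGT or TANTNNTGC on the coding strand only, and 207 of 216 members (95.8%) held such a match. All 9 stretches lie in the last exon of their gene, with coordinates on GRCm38. The heavy chain stretches lie on the minus strand of chromosome 12, at chr12:115920279-115920338 for Ighv1-81, chr12:115623161-115623220 for Ighv1-69, chr12:113896408-113896467 for Ighv7-1 and chr12:114048241-114048300 for Ighv11-2. The kappa stretches lie on chromosome 6, where segments point both ways. On the plus strand are Igkv1-117 at chr6:68121768-68121827, Igkv1-110 at chr6:68271208-68271267, Igkv15-103 at chr6:68437866-68437925 and Igkv14-126 at chr6:67896583-67896642. Igkv5-39 lies on the minus strand at chr6:69900424-69900483. The 60 bases of Ighv1-69 were identical to those of 6 other members, among them Ighv1-52. Over all 216 members there were 194 distinct endings, and 38 members had an ending that another member repeated.

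Likeness between members bears on how reads could be assigned. The median member was 94.8% identical to its nearest relative. Of the 216 members, 84 shared at least 1 window of 100 bases with another V gene, 43 shared over 10% of their windows and 4 over 50%. Ighv11-2 shared 17.4% of its windows and was 98.9% identical to Ighv11-1, whose level did not exceed 0.260 FPKM in any library. Ighv1-52 shared 29.4% of its windows, against 2.38% for Ighv1-69. The sources used here do not give how reads with several matches, or fragments that span a V segment and a constant region, were counted, so the levels of close relatives are uncertain.

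The libraries held between 18.3 and 21.5 M fragments. Levels are in FPKM, fragments per kilobase of exon and per M of a library size, and the fragments behind each value were recovered from it and from the exon length. The library size implied by FPKM was not the recovered total. It was 16.0, 18.2 and 16.0 M in Gr_1 A, B and C, against 19.0, 21.5 and 18.6 M recovered. In fl it was 22.0, 20.8 and 18.5 M against 20.8, 19.5 and 18.3 M, in letter order. In KO it was 19.9, 21.7 and 21.7 M against 19.0, 19.65 and 20.1 M. FPKM thus lay above fragments per kilobase and per M recovered fragments in Gr_1, and below them in fl and KO. The V segments together gave 2782 to 5832 fragments per library. At a gene length of 1 kb, 3 fragments correspond to 0.136 to 0.187 FPKM, a floor that covers counting error only, and V segments, with 347 to 461 exon bases among those printed above, have a higher one. Beside fl, though not beside Gr_1, the libraries labelled KO went against their label at Socs3. It read 3.40 to 4.02 FPKM in fl, 6.76 to 9.23 FPKM in KO and 33.0 to 37.0 FPKM in Gr_1, and transcript outside a deleted part would still be counted. Markers of the labelled myeloid cells were abundant, with S100a8, a calcium-binding protein of neutrophils and monocytes, at 18006 ± 1095 FPKM in fl, 24098 ± 4699 FPKM in KO and 51389 ± 817 FPKM in Gr_1 (SD, n = 3 each). Ly6g, a neutrophil surface marker, averaged 9.99 FPKM in fl, 107 FPKM in KO and 684 FPKM in Gr_1, and Csf1r, a monocyte lineage receptor, 105 FPKM, 47.1 FPKM and 39.0 FPKM. Mpo and Elane, granule enzymes of early neutrophil precursors, averaged 835 and 2402 FPKM in fl, 989 and 2387 FPKM in KO, and 56.5 and 92.7 FPKM in Gr_1. Lyz2, the lysozyme of myeloid cells, was at 53.2 to 59.8 FPKM in KO and at 8670 FPKM or more in every other library. The part of these myeloid differences in the V segment levels was not tested.

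One library stood apart before any comparison. Likeness of V segment use was taken as the Morisita-Horn index, which is 1 for the same shares and 0 for none in common. The library KO C had an index of 0.965 with the mean of KO A and KO B for heavy segments and of 0.981 for kappa segments, although KO A and KO B had only 0.751 and 0.791 with each other. Its segment counts departed from the pooled counts of KO A and KO B with a chi-square of 1.72 per degree of freedom (heavy) and 1.64 (kappa). The 8 other libraries gave 2.46 to 6.33 (heavy) and 4.46 to 6.43 (kappa) against the pooled other 2 of their group. The level of KO C lay between those of KO A and KO B for 37 of 75 heavy segments and 38 of 66 kappa segments with at least 10 fragments in the group. Xist, the transcript of the inactive X chromosome, was at 0.00280 FPKM in KO A, 58.5 FPKM in KO B and 26.3 FPKM in KO C, while 4 genes of the Y chromosome (Ddx3y, Eif2s3y, Kdm5d and Uty) summed to 26.5 FPKM, 0 FPKM and 14.2 FPKM. KO C thus lay between KO A and KO B in both respects. In every fl and Gr_1 library Xist did not exceed 0.0104 FPKM, and the 4 genes of the Y chromosome summed to 16.6 to 39.3 FPKM. By these genes KO A and KO B differed in sex. Sex was thus partly confounded with group in both comparisons of KO, and the fits did not adjust for it. Whether KO C shares RNA with KO A and KO B was not tested, so totals, counts of calls and the heavy effective number of KO are also given without KO C, and other values by library.

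Gr_1 held the most V segment RNA. Summed over the 216 members, the level was 343 FPKM in fl A, 443 FPKM in fl B and 683 FPKM in fl C. It was 432 FPKM in KO A, 586 FPKM in KO B and 503 FPKM in KO C, against 883 FPKM in Gr_1 A, 870 FPKM in Gr_1 B and 851 FPKM in Gr_1 C. Every Gr_1 library lay above every other library, while fl and KO overlapped. The group means were 490 ± 175 FPKM in fl, 507 ± 76.7 FPKM in KO and 868 ± 16.0 FPKM in Gr_1 (SD, n = 3 each). The ratio of means was 1.77 for Gr_1 to fl, 1.03 for KO to fl and 0.584 for KO to Gr_1. Without KO C, the last 2 ratios were 1.04 and 0.586, and the KO to fl ratio ran from 0.900 (without fl A) to 1.29 (without fl C), so it had no set direction. As a share of all recovered fragments, which does not use the library size behind FPKM, the gap was smaller. V segments took 134, 174 and 256 fragments per M fragments in fl A, B and C, 166, 240 and 201 in KO A, B and C, and 275, 271 and 270 in Gr_1 A, B and C. Gr_1 still lay above every other library, by a ratio of 1.45 to fl and with KO at 0.744 of Gr_1. In bulk RNA, fewer cells of a type and less RNA per cell cannot be told apart, so these sums count neither cells nor clones. A sum over the members is a description, for which no test was run.

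The 3 loci did not move by the same amount. Heavy segments summed to 171, 210 and 313 FPKM in fl A, B and C, to 215, 253 and 234 FPKM in KO A, B and C, and to 493, 468 and 470 FPKM in Gr_1 A, B and C. Gr_1 did not overlap fl or KO, and its mean was 2.07 times that of fl. Kappa segments summed to 145, 197 and 328 FPKM in fl A, B and C, to 185, 306 and 246 FPKM in KO A, B and C, and to 328, 331 and 324 FPKM in Gr_1 A, B and C. For kappa the fl C library reached the level of Gr_1, so fl and Gr_1 overlapped, with a ratio of 1.47. Lambda segments summed to 27.2, 36.4 and 42.1 FPKM in fl A, B and C, to 32.6, 26.7 and 22.8 FPKM in KO A, B and C, and to 61.9, 70.7 and 57.2 FPKM in Gr_1 A, B and C. The lambda sum did not overlap between Gr_1 and fl, with a ratio of 1.80. For KO to fl the ratios were 1.01 for heavy, 1.10 for kappa and 0.777 for lambda, and all 3 overlapped. Without KO C these ratios were 1.01, 1.10 and 0.841, and those of KO to Gr_1 were 0.491, 0.748 and 0.468, against 0.490, 0.749 and 0.433 with it. Heavy segments made up 45.8 to 49.7% of V segment FPKM in fl, 43.2 to 49.8% in KO and 53.8 to 55.9% in Gr_1.

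**Figure D1:**
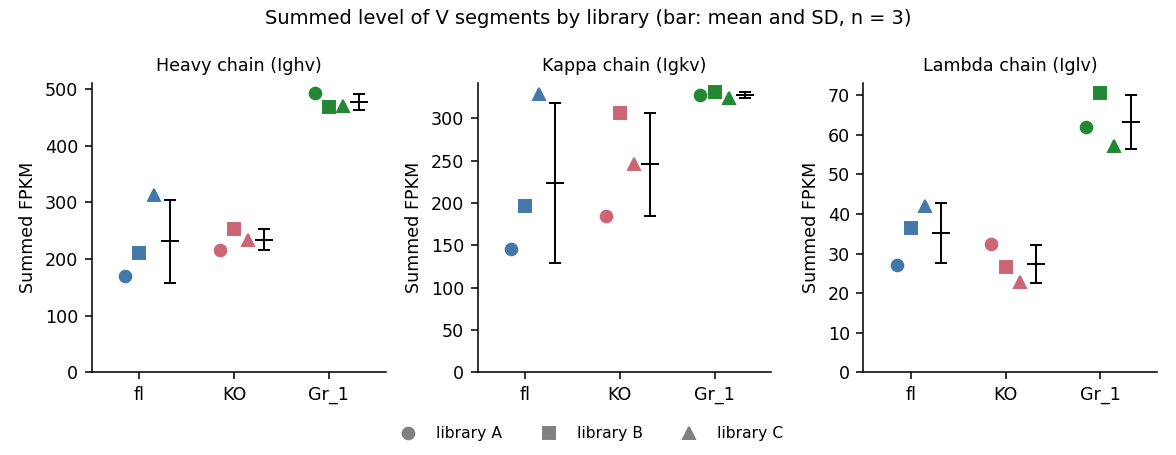
Summed FPKM of heavy, kappa and lambda V segments in each of the 9 libraries, with 1 panel per locus, the symbol giving the library letter and the bar the group mean and SD (n = 3). The Gr_1 libraries lie above all others for heavy (468 to 493 FPKM) and lambda (57.2 to 70.7 FPKM), while fl C reaches 328 FPKM for kappa, level with Gr_1.

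Most members were read in most libraries, at low levels. At least 1 fragment was counted for 172, 180 and 183 members in fl A, B and C, for 172, 173 and 179 in KO A, B and C, and for 190, 190 and 192 in Gr_1 A, B and C. Of the 216 members, 131 had a fragment in every library and 9 had none in any. A level of 1 FPKM was reached by 96, 104 and 131 members in fl, by 100, 117 and 119 in KO, and by 147, 143 and 145 in Gr_1, in letter order. The groups fl and KO overlapped in both counts, and Gr_1 lay above both. Among the 207 members with any fragment, the highest group mean fell in Gr_1 for 150, in KO for 34 and in fl for 23. The filter for testing, 1 FPKM or more in at least 3 libraries, was passed by 148 members (79 heavy, 66 kappa and 3 lambda) and not by 68. Of those that passed, 3 (Ighv2-6, Ighv1-20 and Igkv10-95) reached 1 FPKM in no fl or KO library, so they passed only through Gr_1. None passed only through fl or KO in this sense. These 3 had to be higher in Gr_1, and their calls support nothing below. With the fl and KO libraries alone, 118 members passed, so further members also needed Gr_1 libraries to pass. The 148 thus lean toward members that are high in Gr_1, which the counts of calls below do not correct for. The 148 are thus the more abundant members, and their counts do not speak for all 216.

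Between Gr_1 and fl, every V segment called was higher in Gr_1. With limma, Benjamini-Hochberg adjustment over all 12289 genes tested and an adjusted p under 0.05, 53 of the 148 tested members were higher in Gr_1 and 0 were lower. Leaving out the 3 that passed only through Gr_1 gives 50 of 145, which still include members that needed Gr_1 libraries to pass. Before adjustment, a p under 0.05 was met by 59 members higher and 0 lower. Among all genes tested, 61.4% were called in this comparison (30.0% higher and 31.4% lower), so the share of members called, 35.8%, was below the background and all of it lay on 1 side. The 53 comprised 35 heavy, 15 kappa and 3 lambda segments. The median difference on the log2(FPKM + 1) scale was 0.62 over the 148 members and −0.03 over all genes tested, and 136 of the 148 members had a positive difference. Counting all 216 members without a filter, the Gr_1 libraries lay above all fl libraries for 68 members and below all of them for 0. Over all genes with any value above 0, those shares were 22.6% above and 18.9% below. With a scaling that skipped the 10 most abundant genes, 46 of 146 members were higher and 1 lower. Of all 12275 genes tested under that scaling, 2919 were higher and 4784 lower.

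Ighv7-1, a heavy segment of a small subgroup, was at 1.88, 2.26 and 2.83 FPKM in fl A, B and C, at 2.91, 5.45 and 3.55 FPKM in KO A, B and C, and at 15.5, 17.1 and 19.3 FPKM in Gr_1 A, B and C. The Gr_1 libraries lay far from both other groups, which do not overlap each other either. Its mean was 7.45 times that of fl, and the fitted difference was 2.47 ± 0.18 (log2, SE; adjusted p = 9.73e-06, limma). Ighv1-69, of the large subgroup Ighv1 (53 members), read 4.53, 3.98 and 6.16 FPKM in fl, 13.0, 8.52 and 9.56 FPKM in KO, and 27.0, 28.7 and 23.3 FPKM in Gr_1, in letter order. The 3 groups formed separate steps. Gr_1 exceeded fl by 2.23 ± 0.17 (log2, SE; adjusted p = 1.2e-05), a ratio of 5.39. Ighv1-52, whose ending repeats that of Ighv1-69, differed by 2.38 ± 0.23 (log2, SE; adjusted p = 3.98e-05). Igkv15-103, the 1 member of its subgroup, read 3.76, 3.98 and 6.06 FPKM in fl, 4.70, 10.1 and 5.89 FPKM in KO, and 24.0, 24.1 and 28.1 FPKM in Gr_1, in letter order. It stood apart in Gr_1 by 2.26 ± 0.24 (log2, SE; adjusted p = 6.2e-05), while fl and KO overlapped. Igkv1-88 differed by 1.97 ± 0.18 (log2, SE; adjusted p = 2.47e-05), with a ratio of 5.38.

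Among the other named segments higher in Gr_1 than in fl, the log2 differences were 1.89 for Ighv1-64, 1.46 for Ighv14-4, 1.89 for Ighv8-6 and 0.86 for Ighv1-82. Their adjusted p ran from 0.000146 to 0.000359 with limma. Ighv8-6 rested on 3, 0 and 1 fragments in the fl libraries, so its fold is poorly set. All 3 lambda segments were called. Iglv1, known as the most used lambda segment of laboratory mice, read 15.1, 22.4 and 32.1 FPKM in fl and 36.7, 42.4 and 38.6 FPKM in Gr_1, in letter order, a difference of 0.79 ± 0.24 (log2, SE; adjusted p = 0.0182). Without Gr_1 B the call of Iglv1 was lost (adjusted p = 0.0561). Iglv2 read 9.93, 10.4 and 6.50 FPKM in fl against 20.1, 23.6 and 13.6 FPKM in Gr_1, a difference of 1.01 ± 0.23 (adjusted p = 0.00458). Iglv3 differed least, by 0.55 ± 0.20 (adjusted p = 0.0413), and lost its call in 9 of 17 alternative fits. The members with the highest means did not all differ. Ighv1-81, the most used heavy segment of every fl library, read 11.9, 17.6 and 29.3 FPKM in fl and 19.4, 22.3 and 28.1 FPKM in Gr_1, with overlap and an adjusted p of 0.372.

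**Figure D2:**
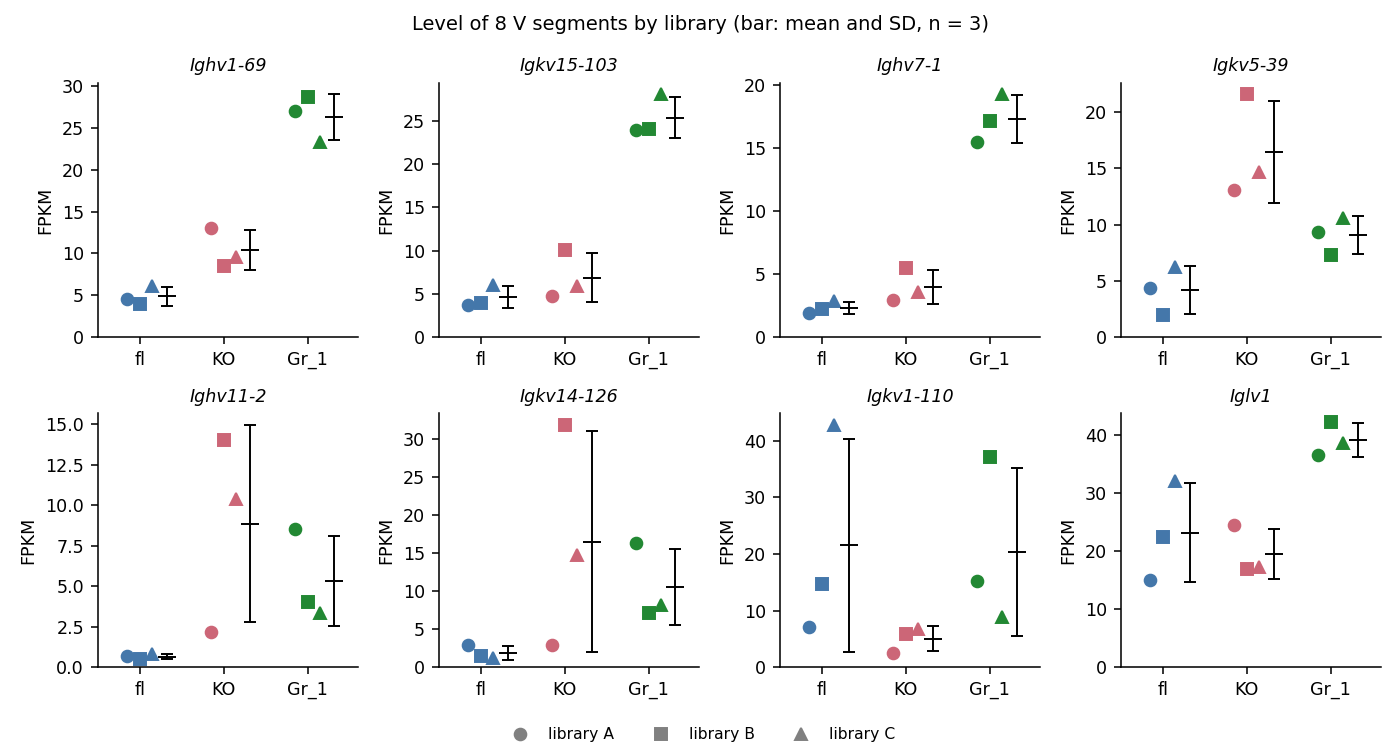
FPKM of 8 V segments in each library, with the symbol giving the library letter and the bar the group mean and SD (n = 3). Ighv1-69, Igkv15-103 and Ighv7-1 lie highest in all Gr_1 libraries and Igkv5-39 in all KO libraries, whereas Ighv11-2, Igkv14-126 and Igkv1-110 differ widely within a group.

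KO against Gr_1 gave the opposite side, with the same Gr_1 libraries as in the comparison above. With limma, 56 of the 148 tested members were lower in KO and 0 were higher (42 heavy, 12 kappa and 2 lambda), while 55.7% of all genes tested were called (26.7% higher and 28.9% lower). Leaving out the 3 that passed only through Gr_1 gives 53 of 145 lower, with the same limit as above. Before adjustment, 68 lower and 3 higher members met a p under 0.05. Without KO C, 44 were lower and 0 higher (limma), while of all 12175 genes tested 3049 were lower and 2586 higher. The median difference was −0.65 over the members and 0.01 over all genes (log2). Without a filter, the KO libraries lay below all Gr_1 libraries for 88 of 216 members and above them for 3, where 21.4% of all genes lay below and 19.3% above. Without KO C it was 101 below and 4 above, against 23.2% and 21.7% of all genes. Leaving the 10 most abundant genes out of the scaling gave 47 of 146 members lower and 4 higher, and 2418 of all 12275 genes lower and 5019 higher. Ighv7-1 fell by 1.91 ± 0.18 from Gr_1 to KO (log2, SE; adjusted p = 7.27e-05, limma) and Ighv1-82 by 1.30 ± 0.12 (adjusted p = 7.19e-05). Ighv5-9-1 read 4.53, 8.54 and 4.23 FPKM in Gr_1 A, B and C and 0.487, 0.334 and 0.557 FPKM in KO A, B and C, on 3 to 5 fragments per KO library. The difference was −2.16 ± 0.29 (log2, SE; adjusted p = 0.000352). Ighv2-6, which passed only through Gr_1, had 14, 19 and 17 fragments there and 0, 2 and 0 in KO, in letter order. Iglv2 fell by 1.88 ± 0.23 (adjusted p = 0.000227) and Iglv1 by 0.98 ± 0.24 (adjusted p = 0.00760). Igkv15-103 fell by 1.80 ± 0.24 (adjusted p = 0.000326). Without KO C the adjusted p of Ighv7-1, Ighv1-82, Ighv5-9-1, Iglv2, Iglv1 and Igkv15-103 ran from 0.000428 (Ighv1-82) to 0.0297 (Iglv1), all still called.

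Between KO and fl, V segments were called in both directions. Their share was near that of all genes with all 9 libraries, and further below it in several other fits. With limma, 8 of the 148 tested members were higher in KO and 5 lower, together 8.78%, while 11.0% of all genes tested were called (4.48% higher and 6.52% lower). Before adjustment, 24 higher and 19 lower members met a p under 0.05. With the library letter as a block, the shares were 9.46% of members and 8.44% of all genes. The medians were −0.03 over the members and −0.01 over all genes (log2). Without KO C only Igkv5-39 and Ighv1-69 (higher) and Igkv12-46 (lower) were called, 2.04% of members against 4.71% of all genes. Without fl B 4 members were, 2.70% against 6.00%. With the 10 most abundant genes left out of the scaling, 11 of 146 members were higher and 4 lower. All 12275 genes leaned the same way under that scaling, with 768 higher and 585 lower. Over all 216 members without a filter, KO lay above fl for 24 members and below for 21, near the shares over all genes of 10.4% and 9.57%. Without KO C it was 29 above and 28 below, against 13.6% and 11.2% of all genes. These fl and Gr_1 libraries are the ones used above, and the 3 comparisons share them in pairs.

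Igkv5-39 showed the smallest adjusted p between KO and fl. It read 4.32, 1.94 and 6.23 FPKM in fl A, B and C, 13.1, 21.6 and 14.7 FPKM in KO A, B and C, and 9.35, 7.30 and 10.6 FPKM in Gr_1 A, B and C. The KO libraries lay above all others, and the difference from fl was 1.82 ± 0.31 (log2, SE; adjusted p = 0.00754, limma), with a ratio of 3.95. Ighv1-69 rose by 0.95 ± 0.17 (adjusted p = 0.0101), with a ratio of 2.12. Both were called in all 17 alternative fits, with a highest adjusted p of 0.0291 for Igkv5-39 and 0.0418 for Ighv1-69. Ighv1-80, a heavy segment near the J-distal end of its locus, read 3.88, 3.29 and 5.39 FPKM in fl A, B and C and 18.2, 9.96 and 14.4 FPKM in KO A, B and C. Its difference was 1.53 ± 0.30 (adjusted p = 0.0126), and it lost its call without KO C (adjusted p = 0.0527) and without fl B (0.0525). Ighv1-85, also J-distal, had 3, 5 and 11 fragments in fl and 79, 15 and 50 in KO, in letter order, and a difference of 1.82 ± 0.47 (adjusted p = 0.0400). Most of that came from KO A, and KO C again lay between its partners.

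On the lower side, Igkv6-23 read 5.91, 16.7 and 10.8 FPKM in fl A, B and C and 2.45, 3.86 and 2.37 FPKM in KO A, B and C. It fell by 1.56 ± 0.34 (log2, SE; adjusted p = 0.0216, limma). Ighv2-9-1 read 1.72, 6.53 and 9.38 FPKM in fl and 0.818, 0.748 and 0.498 FPKM in KO, in letter order, and fell by 1.83 ± 0.43 (adjusted p = 0.0279). Every fl library lay above every KO library for both segments, though the fl libraries themselves were widely spread. Igkv12-46 fell by 0.84 ± 0.18 (adjusted p = 0.02004), from 10.2 ± 1.28 to 5.31 ± 1.36 FPKM (SD, n = 3 each). Igkv10-94 fell by 0.91 ± 0.23 (adjusted p = 0.0357) and Iglv2 by 0.87 ± 0.23 (adjusted p = 0.0444). Ighv1-52, Igkv8-21 and Igkv14-100 were the other segments called higher, at adjusted p of 0.0339, 0.0410 and 0.0469.

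Ighv11-2 and Igkv14-126 are known as a pair. Together they encode antibodies to phosphatidylcholine that are typical of B-1 cells, an innate-like B cell class of the body cavities. Ighv11-2 was read with 7, 5 and 7 fragments in fl A, B and C, 20, 141 and 104 in KO A, B and C, and 63, 34 and 25 in Gr_1 A, B and C, or 0.690, 0.522 and 0.821 FPKM in fl, 2.18, 14.1 and 10.4 FPKM in KO and 8.53, 4.06 and 3.39 FPKM in Gr_1. Igkv14-126 had 23, 11 and 8 fragments in fl A, B and C, 21, 248 and 115 in KO A, B and C, and 94, 47 and 47 in Gr_1 A, B and C, or 2.92, 1.48 and 1.21 FPKM in fl, 2.95, 31.9 and 14.8 FPKM in KO and 16.4, 7.23 and 8.20 FPKM in Gr_1. Both segments were highest in KO B, lower in KO C and lowest within KO in KO A, and in Gr_1 both were highest in Gr_1 A. In KO B, Ighv11-2 was the most used heavy segment, at 6.91% of heavy fragments, and Igkv14-126 the most used kappa segment, at 10.1% of kappa fragments. Against fl, Ighv11-2 differed in KO by 2.29 ± 0.53 (log2, SE; adjusted p = 0.0266, limma) and in Gr_1 by 1.83 ± 0.53 (adjusted p = 0.0144). Igkv14-126 was not called in KO (2.19 ± 0.67, adjusted p = 0.0726) and was called in Gr_1 (1.98 ± 0.67, adjusted p = 0.0294). The KO call of Ighv11-2 held in 8 of 17 alternative fits and was lost without KO C, without KO B and without any 1 of the fl libraries, with adjusted p of 0.0621 without KO B and 0.104 without KO C. The Gr_1 call of Ighv11-2 was lost without Gr_1 A (adjusted p = 0.0525), and that of Igkv14-126 held in 10 of 17 alternative fits.

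Another known pair of that specificity, chosen after its values were seen, did not follow. Ighv12-3 did not exceed 0.570 FPKM in any fl or KO library and reached 1.24, 3.28 and 0.708 FPKM in Gr_1 A, B and C. Its partner Igkv4-91 read 0.889, 2.29 and 4.08 FPKM in fl, 5.76, 1.93 and 3.72 FPKM in KO, and 3.83, 8.77 and 9.07 FPKM in Gr_1, in letter order. Neither was highest in KO B.

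V segment use was broad in every library, and by the inverse Simpson index heavy segments were used most evenly in Gr_1. The effective number of segments (inverse Simpson index, the number of equally used segments that would give the same chance of drawing 1 segment in 2 draws) does not depend on the number of fragments. For heavy segments it was 43.9, 38.9 and 39.7 in fl A, B and C, 33.7, 35.998 and 40.1 in KO A, B and C, and 47.4, 45.3 and 46.9 in Gr_1 A, B and C. Every Gr_1 library lay above every other, and fl and KO overlapped, with means of 40.8 ± 2.72, 36.6 ± 3.23 and 46.5 ± 1.10 (SD, n = 3 each) in fl, KO and Gr_1. Without KO C the KO mean was 34.9. In 1369 heavy fragments, the number in the shallowest library, 88.9 to 92.0 segments would be found in fl, 88.0 to 89.9 in KO and 94.6 to 96.2 in Gr_1. Other measures did not set Gr_1 apart from fl. The Shannon evenness of heavy segments (1 for equal use) was 0.901 in fl A and 0.894 to 0.900 in Gr_1, and the 10 most used took 36.2% in fl A and 35.7 to 37.5% in Gr_1. For kappa segments the effective number was 36.4, 31.6 and 22.6 in fl, 36.9, 29.5 and 37.3 in KO, and 37.7, 28.4 and 35.7 in Gr_1, in letter order, and all groups overlapped. No group was thus set apart for kappa.

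The lowest kappa numbers, in fl C, Gr_1 B and KO B, went with different abundant segments. Igkv1-110 took 13.9% of the kappa fragments in fl C and 12.1% in Gr_1 B, the shares of the most used segment in those libraries, but 2.12% in KO B, where Igkv14-126 took 10.1%. It read 7.14, 14.7 and 42.8 FPKM in fl A, B and C, 2.51, 5.96 and 6.76 FPKM in KO A, B and C, and 15.2, 37.1 and 8.88 FPKM in Gr_1 A, B and C. The spread within fl and within Gr_1 exceeded 4-fold, and no comparison called it (adjusted p between 0.0576 and 0.960). Its close relative Igkv1-117, 97.5% identical, read 8.77, 10.6 and 32.9 FPKM in fl and was the most used kappa segment in fl A, KO A and KO C. Among heavy segments, Ighv1-81 led in all fl libraries and in Gr_1 C, at 5.75 to 9.0005% of heavy fragments. Ighv1-80 led in KO A (8.17%) and KO C (5.86%), and Ighv1-69 in Gr_1 A (5.25%) and Gr_1 B (5.90%). Igkv6-23 led the kappa segments of fl B (8.45%), and Igkv15-103 those of Gr_1 A (7.40%) and Gr_1 C (8.83%).

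Libraries of a group were more alike in heavy segment use than libraries of different groups, except within KO. Over the 27 pairs of libraries from different groups, the Morisita-Horn index for heavy segments ran from 0.716 to 0.866 (median 0.793). It was 0.934 to 0.963 within Gr_1 and 0.878 to 0.902 within fl. Within KO, KO A and KO B had 0.751, below the median between groups, while KO C had 0.890 with KO A and 0.911 with KO B. For kappa segments the index between groups ran from 0.560 to 0.874 (median 0.730), and it was 0.821 to 0.901 within Gr_1 and 0.791 to 0.854 within fl, so the ranges overlapped. All 36 pairs are descriptions, since pairs share libraries.

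**Figure D3:**
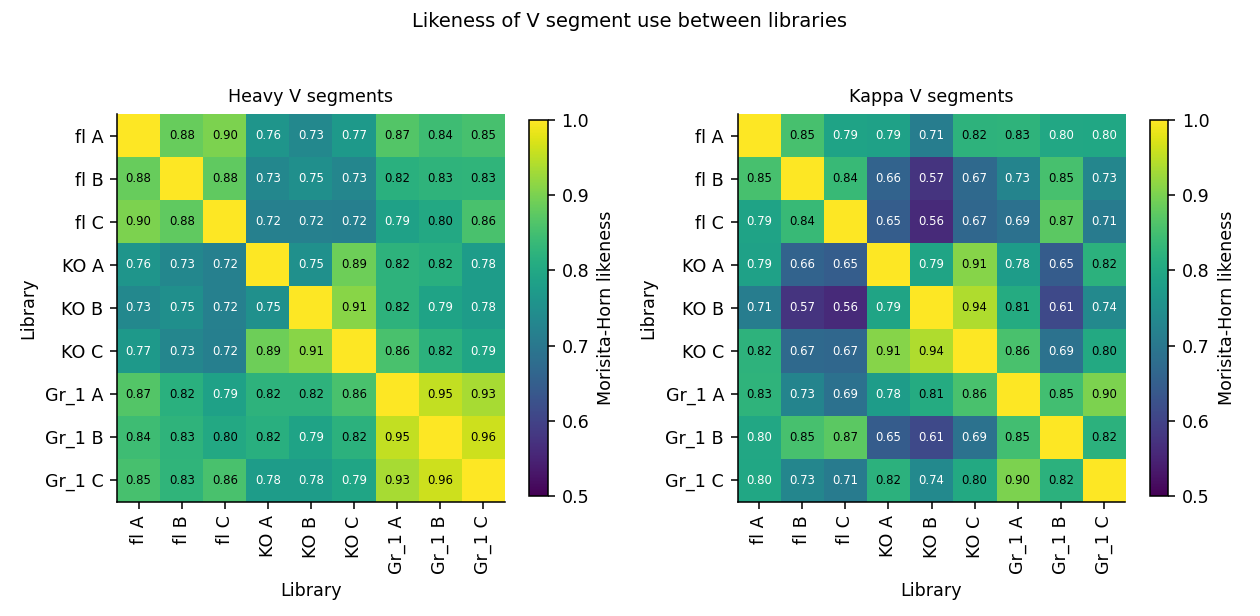
Morisita-Horn likeness of V segment use for each pair of the 9 libraries, for heavy segments (left) and kappa segments (right), with the colour scale from 0.5 to 1. The 3 Gr_1 libraries form a block of high heavy chain likeness (0.934 to 0.963), and KO C is close to both KO A and KO B, which are less alike (0.751).

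Subgroups of related segments also differed in share, and single members carried several of these differences, for which no test was run. Subgroup Ighv2 (9 members) took 6.06, 6.67 and 10.6% of heavy fragments in fl A, B and C, 2.96, 2.94 and 3.30% in KO A, B and C, and 5.01, 5.64 and 7.38% in Gr_1 A, B and C, so that KO lay below both other groups, and it still did without Ighv2-9-1 (2.57 to 3.09% in KO, 3.52 to 7.53% in fl and 3.94 to 5.64% in Gr_1). Subgroup Ighv7 (4 members, Ighv7-1 among them) took 2.92, 3.08 and 2.42% in fl, 2.45, 3.72 and 2.61% in KO and 4.49, 5.16 and 5.38% in Gr_1, in letter order, with Gr_1 above the rest. The other Ighv7 members took 1.52 to 2.01% in fl, 1.09 to 1.62% in KO and 1.31 to 1.51% in Gr_1, so Ighv7-1 carried the Gr_1 share. Subgroup Ighv1 (53 members) was the largest share everywhere, at 52.3 to 66.8% of heavy fragments, and all groups overlapped. Among kappa subgroups, Igkv15 (1 member) took 1.84 to 3.34% in fl and KO and 7.33 to 8.83% in Gr_1. Igkv5 (5 members) took 3.78 to 5.21% in fl, 8.20 to 9.89% in KO and 4.63 to 5.38% in Gr_1, so KO lay above both other groups. Without Igkv5-39 the shares overlapped, at 1.60 to 4.29% in fl, 1.55 to 3.26% in KO and 1.95 to 2.72% in Gr_1. Igkv6 (9 members) took 12.5 to 17.3% in fl, 8.13 to 10.7% in KO and 9.83 to 11.8% in Gr_1, and without Igkv6-23 fl (8.84 to 9.37%) overlapped KO (6.96 to 9.38%). The large subgroup Igkv4 (26 members) held 11.0 to 17.1% over all libraries, with no group apart.

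Position along the locus was described by tertiles of the members, ordered by distance from the J segments. The J-distal tertile of the heavy locus (37 members, 1626 to 2571 kb from the J segments, mostly of subgroup Ighv1) took 40.5, 39.2 and 37.6% of heavy fragments in fl A, B and C, 56.6, 41.0 and 49.8% in KO A, B and C, and 41.6, 46.5 and 44.0% in Gr_1 A, B and C. Both KO and Gr_1 lay above fl in every library, with KO B only just above fl A, and KO A was highest. Of this tertile, Ighv1-80 and Ighv1-85 alone took 8.17 and 5.08% of heavy fragments in KO A. They took 3.72 and 0.735% in KO B and 5.86 and 2.66% in KO C. In fl they took 1.51 to 2.19% and 0.219 to 0.521%. The part of single members in the tertile shares was not tested. The middle tertile (38 members) took 29.5 to 33.9% in fl, 23.8 to 28.4% in KO and 25.9 to 29.3% in Gr_1, so fl lay highest. The J-proximal tertile (38 members) took 25.6 to 32.9% in fl, 19.3 to 30.6% in KO and 26.1 to 30.0% in Gr_1, with overlap. For kappa, the J-distal tertile took 41.8 to 48.0% in fl, 41.4 to 42.8% in KO and 45.7 to 53.4% in Gr_1, and Gr_1 overlapped fl. The kappa middle tertile held 21.1 to 25.6% over all libraries.

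**Figure D4:**
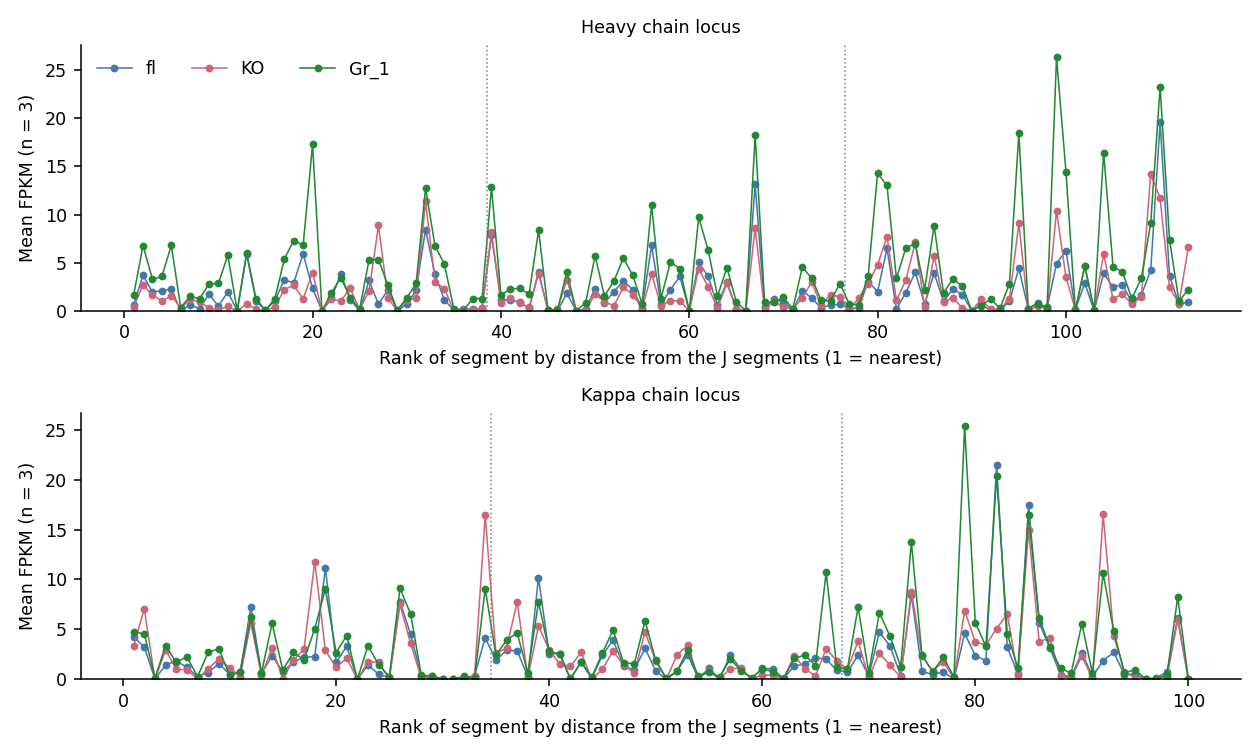
Mean FPKM (n = 3) of each V segment in fl, KO and Gr_1 against its rank by distance from the J segments, for the heavy locus (top, 113 segments) and the kappa locus (bottom, 100 segments), with dotted lines between tertiles. Ighv1-69 at 26.3 FPKM and Igkv15-103 at 25.4 FPKM, both in Gr_1, are the highest points of their panels, and many neighbours lie below 5 FPKM.

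Genes that act before, with and after V segments were read from fixed lists. Of the constant regions, which are spliced to the V exon, 11 of 12 were tested (Ighe was at 0 in every library), and with limma 8 were higher in Gr_1 than in fl and 0 lower, 5 were lower in KO than in Gr_1 and 0 higher, and 0 were called between KO and fl (2 higher and 0 lower for a raw p under 0.05). Ighm, the constant region of the first antibody class made, read 168, 163 and 180 FPKM in fl A, B and C, 167, 145 and 151 FPKM in KO A, B and C, and 405, 360 and 387 FPKM in Gr_1 A, B and C. Its difference of Gr_1 from fl was 1.164 ± 0.081 (log2, SE; adjusted p = 7.27e-06). Igkc, the kappa constant region, read 153, 225 and 221 FPKM in fl, 219, 415 and 314 FPKM in KO and 357, 383 and 377 FPKM in Gr_1, in letter order, and KO B exceeded every other library. Igha, of the mucosal antibody class, read 42.0, 55.5 and 66.6 FPKM in fl, 51.1, 92.5 and 72.3 FPKM in KO and 58.9, 60.3 and 56.3 FPKM in Gr_1, in letter order. It was called in none of the comparisons, was highest in KO B and did not set Gr_1 apart as Ighm did.

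The recombination and pre-B receptor genes, which cut the V segments and pair the first heavy chains, gave the widest gap. All 7 were higher in Gr_1 than in fl and lower in KO than in Gr_1, against 30.0% and 28.9% of all genes. Rag2 and Vpreb2 reached 1 FPKM in no fl or KO library and passed the filter only through Gr_1. They had to be higher there, and their calls support nothing here. Vpreb1, part of the surrogate light chain, read 4.13, 4.02 and 3.11 FPKM in fl, 4.53, 1.30 and 3.49 FPKM in KO and 48.0, 49.7 and 34.5 FPKM in Gr_1, in letter order, a difference of 3.23 ± 0.29 for Gr_1 from fl (log2, SE; adjusted p = 2.65e-05, limma). Between KO and fl only Dntt, which adds bases at V junctions, was called, at 1.77 ± 0.40 FPKM in fl and 5.67 ± 1.05 FPKM in KO (log2 difference 1.27 ± 0.18; adjusted p = 0.00357). Of the B cell identity genes, 12 of 14 were tested, 12 were higher in Gr_1 than in fl, 11 were lower in KO than in Gr_1 and 0 were called between KO and fl (2 higher and 0 lower for a raw p under 0.05). Cd79a, a signalling chain of the B cell receptor, read 22.2, 24.3 and 32.4 FPKM in fl, 30.0, 14.0 and 21.0 FPKM in KO and 112, 102 and 104 FPKM in Gr_1, in letter order. The summed level of the 14 genes was 145 to 196 FPKM in fl, 131 to 188 FPKM in KO and 444 to 480 FPKM in Gr_1. Cd37 was the largest part of that sum, with means of 66.8, 80.7 and 126 FPKM in fl, KO and Gr_1. Without KO C the counts for these 3 lists were as given, except that 4 constant regions were lower in KO than in Gr_1.

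The plasma cell list was mixed. Of 9 genes tested, 6 were higher in Gr_1 than in fl and 3 lower, 3 were higher and 5 lower in KO than in Gr_1, and 1 was lower in KO than in fl. The last was Txndc5, a disulfide isomerase of the endoplasmic reticulum. Jchain, which joins IgM and IgA units, read 9.79, 15.7 and 13.2 FPKM in fl, 14.0, 26.2 and 18.2 FPKM in KO and 20.2, 21.9 and 19.9 FPKM in Gr_1, in letter order. The order of KO B above KO C above KO A was thus the same for Jchain, Igha, Igkc, Ighv11-2 and Igkv14-126. Cd79a and Vpreb1 had the opposite order, KO A above KO C above KO B. So did Ighm, at 167, 151 and 145 FPKM in KO A, C and B, and Mzb1 of the plasma cell list, at 9.45, 6.66 and 5.79 FPKM. The constant region and plasma cell lists thus each held both orders. KO C lay between KO A and KO B for all these genes, so the orders rest on the contrast of KO A with KO B. The B cell identity sum was thus highest where the V segment sum was, in Gr_1, but within KO it ran in the opposite order, at 188 FPKM in KO A, 160 FPKM in KO C and 131 FPKM in KO B. Its part in the differences of single segments was not tested. Markers of other cells moved too. The 6 T cell markers summed to 3.53 to 4.63 FPKM in fl, 10.3 to 13.1 FPKM in KO and 9.92 to 11.8 FPKM in Gr_1, and the 6 markers of plasmacytoid dendritic cells to 47.0 to 52.2 FPKM, 37.5 to 47.2 FPKM and 23.8 to 30.9 FPKM. The last sum is mostly Bst2, which many cells express, with means of 47.9, 37.8 and 25.4 FPKM in fl, KO and Gr_1. Siglech, Cox6a2, Klk1 and Ccr9 had their highest means in KO, whereas Bst2 was highest in fl and Tcf4 in Gr_1. Klk1 and Ccr9 stayed below 1 FPKM in every library. Siglech was at 0.446, 1.61 and 0.530 FPKM in fl, KO and Gr_1, and Cox6a2 at 0.586, 2.02 and 1.26 FPKM. Tcf4 was at 0.780, 0.814 and 0.906 FPKM. Of the 3 genes of that list tested, 2 were called higher in KO than in fl and 0 lower, and 0 of the 2 tested were called without KO C. For the T cell list, 3 of 4 tested were higher in KO than in fl and 0 lower, and 2 of 3 without KO C. Siglech and Trac reached 1 FPKM only in KO libraries, so they passed the filter through KO alone. Both had to be higher in KO, and their calls support nothing here. Members of the T cell list differed in Gr_1. Cd3e, Cd3g and Trac averaged 0.0333, 0.136 and 0.446 FPKM there, near their fl means of 0.0575, 0.0965 and 0.401 FPKM. In KO they averaged 0.346, 0.768 and 2.27 FPKM. The Gr_1 sum was mostly Cd3d, Lck and Cd2, at means of 4.04, 3.68 and 2.55 FPKM. The part of these markers of other cells in the V segment levels was not tested.

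**Figure D5:**
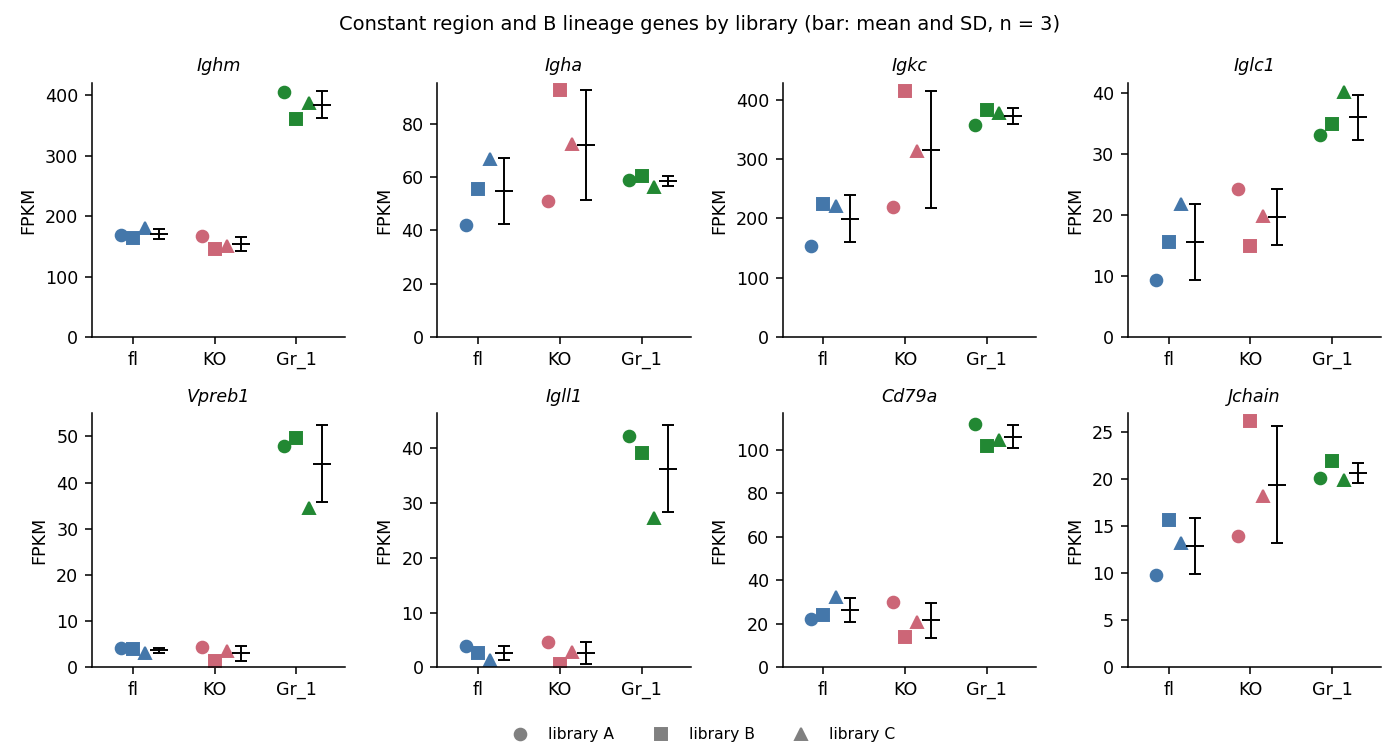
FPKM of 4 constant region genes and 4 B lineage genes in each library, with the symbol giving the library letter and the bar the group mean and SD (n = 3). Ighm, Vpreb1, Igll1 and Cd79a lie highest in all Gr_1 libraries, whereas Igha, Igkc and Jchain reach their highest value in KO B.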

How the data were processed

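The 9 libraries were made from total RNA and read in pairs on a NovaSeq sequencer, per the labels' protocols. The authors deposited 1 column of FPKM per library for 54532 genes, per the file headers. Tools named in the submitters' processing notes are DESeq2 1.16.1 and featureCounts 1.5.0-p3, with mm10 and GRCm38 as builds. The aligner was not given in the sources used here. Symbols, biotypes, exon lengths, coordinates and the printed sequences came from GENCODE M21 on GRCm38. Fragments were recovered from FPKM and exon length, and all values of the 216 members came out whole within 0.02 fragments.

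The 12289 genes that reached 1 FPKM in at least 3 libraries were tested with limma 3.58.1 in R 4.3.3, with its trend option, on log2(FPKM + 1), a scale that understates the change of low genes. A single fit held the 9 libraries, a mean for each group and no block, with 6 residual degrees of freedom. P-values are two-sided and were adjusted over all 12289 genes by the Benjamini-Hochberg method, with 0.05 as the threshold for a call. Differences are log2 with SE, and ratios are of mean FPKM. Sums, effective numbers and likeness are descriptions with no test, computed with Python 3.11.15 (scipy 1.17.1, pandas 2.3.3, numpy 2.4.6). The scripts were tested on simulated data.

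Segments were named by a rule: the 10 with the highest mean, up to 10 called per direction and comparison by smallest adjusted p, the most abundant heavy and kappa segment of each library, and the lambda segments. The members and lists were chosen with earlier results of these data known. Alternatives were another pseudocount (0.1), other filters, quantile normalization, scaling without the 10 most abundant genes, limma voom, a replicate block, only the groups compared, and each library left out in turn. Leaving out segments that share over 10% of their windows with another V gene was chosen after seeing the data.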

Additional observations from a re-analysis of the deposited data

Results flagged for a closer look

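V segments annotated as pseudogenes, which the comparisons do not use, gave a signal in every group. Their summed level was 17.1, 12.01 and 13.5 FPKM in fl A, B and C, 22.5, 17.0 and 20.6 FPKM in KO A, B and C, and 50.7, 59.5 and 54.5 FPKM in Gr_1 A, B and C. The Gr_1 mean of 54.9 ± 4.38 FPKM (SD, n = 3) was 3.87 times that of fl, and no Gr_1 library overlapped fl or KO. Much of this rested on 2 rows, chosen after their values were seen. Ighv8-10 was at 0.127, 0.269 and 0 FPKM in fl A, B and C, 4.22, 1.03 and 1.80 FPKM in KO A, B and C, and 21.3, 20.9 and 19.2 FPKM in Gr_1 A, B and C. Ighv1-41 held 8.20 to 13.0 FPKM in fl and 16.9 to 22.3 FPKM in Gr_1. Without Ighv8-10 the ratio of Gr_1 to fl was 2.45, and Gr_1 still overlapped neither fl nor KO. The part of reads from related functional segments in this sum was not tested.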

How the results depend on the processing

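The number of members called between KO and fl was 13 and depended on the settings. It was 3 with no filter but a value above 0 (1.45% of members tested, against 3.45% of all genes). It was 7 with limma voom on recovered fragments (4.73% against 13.2%) and 7 with only those groups in the fit (5.93% against 6.88%). Leaving out 1 library gave 3 to 13, with 3 without KO C (2.04% against 4.71%) and 4 without fl B (2.70% against 6.00%). With 1 library left out, Gr_1 against fl gave 37 to 64, at 26.4 to 45.1% of members and 53.9 to 62.6% of all genes. KO against Gr_1 gave 43 to 65, at 29.9 to 45.8% of members and 46.3 to 62.2% of all genes. The replicate block, which used the letter as a pair, gave 14 members for KO against fl (9 of them among the 13). It gave 56 in the comparison of Gr_1 with fl (37.8% of members, against 59.2% of all genes). In that of KO with Gr_1 it gave 66 (44.6% against 52.6%). Whether the letters pair the libraries could not be settled from the data, since deviations from a mean of 3 libraries say little about pairs. Correlations of these deviations ran from −0.06 to 0.14 for the same letter and from −0.13 to 0.08 for different letters. The highest was that of fl A with KO A, while fl B was nearer to KO A than to KO B. Scaling without the 10 most abundant genes moved the median of all genes of the log2 difference to −0.14 (Gr_1 against fl) and 0.18 (KO against Gr_1). The ratio of V segment totals for KO to Gr_1 was 0.584, and 0.744 as a share of all fragments or 0.677 with that scaling. Effective numbers of heavy segments in fl, KO and Gr_1 were 2.92, 2.74 and 3.005 with subgroups summed, and 45.0 in Gr_1 from FPKM shares. Kappa numbers with subgroups summed were 8.63, 10.7 and 10.3. The cause was not tested, apart from summing, which leaves fewer units. The KO to fl ratio of V segment totals, 1.03, crossed 1 and was 0.900 without fl A, 0.955 without KO B and 0.988 without fl B. With the replicate block 9.46% of members and 8.44% of all genes were called between KO and fl, against 8.78% and 11.0% without it, so the order of the shares changed. With segments that share windows left out, 10, 43 and 48 members were called. Depth limits the members under 3 fragments, whose levels are poorly set.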
